A study of Mus musculus with 2 samples.

Results

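The genes described here are the mouse microRNA (miRNA) genes that carry the symbols Mir3057 to Mir3114, measured in the neural tube of mouse embryos. They were chosen by the number in the symbol, with Mir3072 and the genes of 1 stretch of chromosome 12 left out. The choice was made with earlier results of these data known. They came to 49 of the 1973 miRNA genes that had a row. A further 8 genes of the range that are annotated in GENCODE M21 had no row used here, and these were Mir3065, Mir3068, Mir3069, Mir3073b, Mir3074-2, Mir3084-1, Mir3087 and Mir3107. The series held 1 group of 2 small RNA libraries, made from RNA below 30 nt of the neural tube of B6NCrl embryos at embryonic day 11.5 (E11.5). Replicate 1 was a pool of 109 embryos and replicate 2 a pool of 88 embryos, each with male and female embryos together. No genotype, treatment or second stage was compared, and the labels carry 1 donor identifier for both pools. The differences below are therefore distances between 2 libraries, and they may be technical.

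MiRNAs are small RNAs cut from a hairpin in a longer transcript by the nucleases Drosha and Dicer, and they guide Argonaute proteins to messenger RNAs through their seed. miRBase numbers miRNAs in the order in which they were registered, and this stretch of numbers came in large part from deep sequencing of small RNA of mouse tissues, after most conserved miRNAs already had a number. Some of its members lie on the opposite strand of a known miRNA, some lie in introns of protein-coding genes, and some are mirtrons, whose hairpin is an intron released by splicing in place of a Drosha cut. The neural tube gives rise to the brain and the spinal cord.

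RefSeq (GRCm38.p6) gave mature sequences for 46 of the 49 genes, 88 in all, and Mir3078, Mir3079 and Mir3106 had no entry. Each value below is a count of a whole hairpin, in which its arms are added together. The sequences shown first are those of the most abundant hairpins without a miRNA gene on the other strand, since most of the interpretable counts of the set lie there. In each, the capitals mark the seed, bases 2 to 8 from the 5′ end.
miR-3102-5p: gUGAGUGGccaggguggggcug
miR-3102-5p.2-5p: gGUGGUGCaggcaggagagcc
miR-3102-3p.2-3p: cUCUACUCccugccccagcca
miR-3102-3p: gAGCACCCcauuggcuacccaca
miR-3099-5p: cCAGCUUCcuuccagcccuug
miR-3099-3p: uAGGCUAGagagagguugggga
miR-3066-5p: uUGGUUGCuguagauuaaguag
miR-3066-3p: cACUUAAUagaccgcaaccugc
miR-3061-5p: cAGUGGGCcgugaaagguagcc
miR-3061-3p: cUACCUUUgauaguccacugcc
miR-3058-5p: uCAGCCACggcuuaccuggaaga
miR-3058-3p: uUCCUGUCagccgugggugcc
miR-3081-5p: gACUGGAGcuuggagcggugagc
miR-3081-3p: uUGCGCUCcgaucucugagcugg
miR-3093-5p: cGCACCCCgcggagcucacacu
miR-3093-3p: uGUGGACAccgugggagguugg

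Next come the mature RNAs of the 2 most abundant rows, Mir3071 and Mir3074-1, beside those of the miRNA gene on the other strand, since their values turn on which strand was counted. Mir3071 lies opposite Mir136, and Mir3074-1 lies opposite Mir24-1. Mir3073a, opposite Mir3073b, also overlaps a miRNA gene, but held only 0 and 2 counts. The capitals again mark bases 2 to 8.
miR-3071-5p: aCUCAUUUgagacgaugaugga
miR-136-3p: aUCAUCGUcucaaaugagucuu
miR-3071-3p: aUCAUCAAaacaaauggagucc
miR-136-5p: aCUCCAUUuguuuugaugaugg
miR-3074-5p: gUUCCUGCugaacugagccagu
miR-24-3p: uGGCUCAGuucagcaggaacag
miR-24-1-5p: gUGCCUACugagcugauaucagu
On the genome, miR-3071-3p overlaps miR-136-5p by 20 nt, miR-3071-5p overlaps miR-136-3p by 19 nt, and miR-3074-5p overlaps miR-24-3p by 20 nt, in each case as the other strand. Since the strands are complementary, RNAs from the same place carry different seeds.

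The 88 mature RNAs held 86 different seeds. Of these, 75 were in no mouse miRNA of the RefSeq table from a gene outside the 49, and 11 were shared with such a miRNA. Among the 11 is UUCCUGC, shared only with miR-3074-5p itself from its second gene, Mir3074-2. Among the 75, 3 were shared by 2 genes of the set. Mir3064 and Mir3085, on different chromosomes, share the seed CUGGCUG. Mir3070a and Mir3070b, neighbours on chromosome 12, share the seeds of both arms. These are shown because they are the cases in which counts of separate genes stand for RNAs with the same seed.
miR-3064-5p: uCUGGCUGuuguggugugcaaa
miR-3085-3p: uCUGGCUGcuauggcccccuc
miR-3070-5p: aGCCCCUGaccuugaaccuggga
miR-3070-3p: uGGUGCUAccgucagggguaga
miR-3070-2-3p: uGGUGCUAuggucagggguaga

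Own-strand counts on all miRNA genes came to 3708662 in replicate 1 and 4055883 in replicate 2, and counts per 1000000 (CPM) below are relative to these totals. Marker miRNAs of neural tissue, with 8 of 9 genes having a row and none at 0, held 0.850% and 0.738% of counts. The Mir9 and Mir124a copies of this list share runs of at least 26 nt, and reads that map to several places are not in these counts. The shares of the lists are therefore not measures of the amount of each tissue. Markers of other tissues were present too: Mir126a of endothelium held 2.49% and 2.23%, 4 mesenchymal genes 2.38% and 1.75%, 7 epithelial genes 0.406% and 0.367%, 6 muscle genes 0.146% and 0.0930% with Mir133a-1 and Mir133a-2 at 0, 4 blood genes 0.0999% and 0.0723%, and Mir122 of liver 0.000782% and 0.000789%. All lists but that of liver held a larger share in replicate 1, and their part in the results below was not tested. In such bulk tissue, fewer cells of a type and less RNA per cell cannot be told apart.

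Nearly every gene of the set gave reads, and nearly all at low levels. At least 1 own-strand count was present for 46 of the 49 genes (93.9%), against 36.7% of all 1973 miRNA genes. At least 10 counts in both libraries were present for 21 (42.9%), against 18.9% of all, and these 21 are called detected. The shares over all genes include 931 genes to which no number was assigned, of which 5.80% had any count and 1.72% were detected. Most of these have a symbol without a number, and 79 could not be matched to GENCODE M21 and so had no symbol. Only 2 rows, those of Mir3071 and Mir3074-1, reached 100 CPM in both libraries, and none went above 214 CPM in either. The row of Mir3071, the most abundant of the 49, ranked 165 among all genes, and that of Mir3102 ranked 208.

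The same measures were taken for classes of genes ordered by the number in the symbol. Of 465 genes with symbols up to Mir999, 60.9% were detected, with a median of 284 CPM among those detected. Of 82 genes from Mir1000 to Mir3056, 26.8% were detected with a median of 14.3 CPM. The 49 genes had the largest share with any count of these classes, and the median of their 21 detected genes was 11.2 CPM. In the 172 genes from Mir3115 to Mir6895, only 8.14% were detected, with a median of 16.2 CPM. The 178 genes from Mir6896 to Mir7094 were alike in having some count (75.8%) but differed in that 3.93% were detected, with a median of 4.28 CPM. Of the 95 genes above Mir7094, 8.42% were detected. Among detected genes, then, levels in the set lay with those of the neighbouring numbers, while the share detected lay above that of all the later numbers. These shares describe classes of genes in 2 libraries, and no test was made on them.

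**Figure D1:**
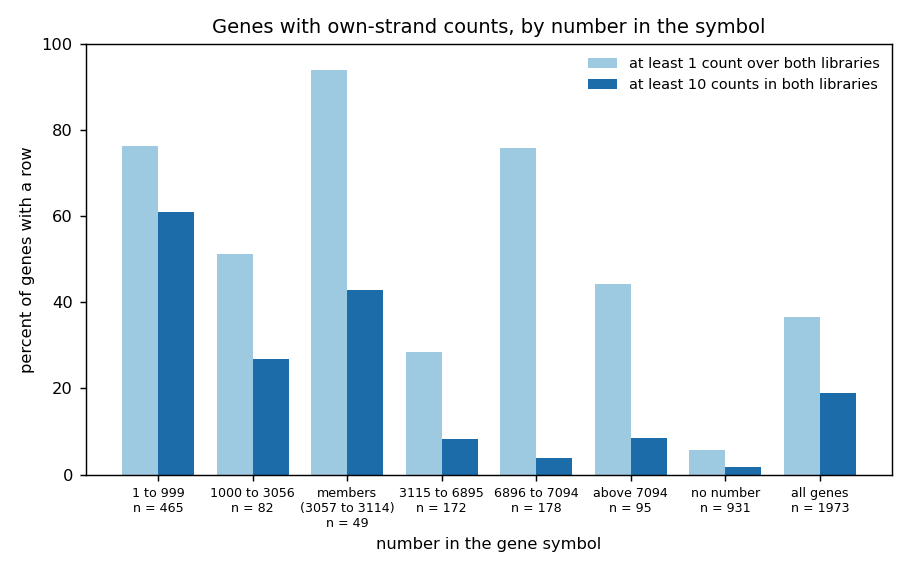
The bars give the percentage of miRNA genes with at least 1 own-strand count over both libraries (light) and with at least 10 counts in both (dark), by the number in the gene symbol, with the number of genes under each class; "members" are the 49 genes described. The light bar of the 49 genes stands at 93.9% and the dark bar at 42.9%, between the dark bars of symbols up to Mir999 (60.9%) and of all genes (18.9%). The class without a number includes 79 genes not matched to M21.

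Summed over the 49 genes, the libraries held 2879 counts in replicate 1, or 0.0776% of own-strand counts (95% Wilson interval 0.0748 to 0.0805), and 2679 counts in replicate 2, or 0.0661% (0.0636 to 0.0686). The mean was 0.0718% ± 0.00819 (SD, n = 2), and the intervals, which cover counting error only, did not overlap. Replicate 1 held the larger share, as it did for every other class of symbols save those up to Mir999, which held 97.1% and 97.8%. The 4 most abundant rows made up 70.3% and 72.5% of these counts, and the rows of Mir3071 and Mir3074-1 alone 46.9% and 52.5%. Without those 2 rows the share was 0.0412% (0.0392 to 0.0433) in replicate 1 and 0.0314% (0.0297 to 0.0331) in replicate 2.

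The 2 most abundant rows need a statement on strand before their values. Both carry an earlier gene version in the deposited files than in GENCODE M21, from which symbols and positions were taken, so the gene model that was counted differs in some way from the one given here. Both also lie on the other strand of a better known miRNA that had no row used here. The earlier gene models were not available here, so which gene of each opposite-strand pair the own-strand counts stand for was not settled. The identifier of the Mir3071 row is numbered between those of the plus-strand genes Mir431 and Mir434. It lies far below the identifiers of all other genes of the set, that of Mir3074-1 included. What this says of the gene that was counted was not tested.

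Mir3071 (M21: chr12:109595318-109595397, minus strand) lies in a coding exon of Rtl1, a paternally expressed gene of retrotransposon origin in the Dlk1-Dio3 imprinted domain. The miRNAs on the plus strand of that region come from maternally expressed transcripts. Its row held 792 and 669 own-strand counts, or 214 and 165 CPM (189 ± 34.4, SD, n = 2), and 1 and 0 opposite-strand counts. Replicate 1 was the higher, by 0.37 on the log2 scale (adjusted p = 2.61e-06, exact binomial test with Benjamini-Hochberg adjustment). Nearly all reads at this place thus came from a single strand in both libraries. Plus-strand miRNAs around it were present at mean levels of 4621 CPM (Mir431), 3779 CPM (Mir127), 1135 CPM (Mir434) and 1015 CPM (Mir433), with 0 opposite-strand counts for each of these 4. The nearest of the plus-strand genes with a row, Mir432, had 0 counts, and Mir337 had 3 and 9 opposite-strand counts.

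Mir3074-1 (M21: chr13:63301199-63301283, minus strand) lies in an intron of Fancc, a gene of the Fanconi anaemia DNA repair pathway, opposite Mir24-1. Its row held 559 and 738 own-strand counts, or 151 and 182 CPM (166 ± 22.1, SD, n = 2), and 132 and 69 counts on the opposite strand. Both strands of this place gave reads in both libraries, at 4.23 own-strand counts per opposite-strand count in replicate 1 and 10.7 in replicate 2. Replicate 2 was the higher on the own strand, with a log2 ratio of replicate 1 over replicate 2 of -0.27 (adjusted p = 0.00184 by the same exact binomial test). On both strands together the ratio was -0.10 (exact binomial, adjusted p = 0.278), so the call rests on the own-strand count.

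A further limit on Mir3074-1 lies in its sequence. Its hairpin of 85 nt shares a run of 30 nt with the 83-nt hairpin of Mir3074-2 on chromosome 8, shown in capitals here, and miR-3074-5p lies wholly inside that run.
Mir3074-1: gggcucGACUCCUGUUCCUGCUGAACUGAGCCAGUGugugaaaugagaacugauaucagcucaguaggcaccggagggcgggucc
Mir3074-2: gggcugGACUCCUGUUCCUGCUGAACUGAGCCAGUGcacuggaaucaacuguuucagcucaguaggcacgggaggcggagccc
Reads that mapped to several places were kept apart from the genes in the deposited tables, at 25.2% and 27.3% of reads. How many of these were miR-3074-5p or miR-24-3p was not analysed here. A full-length read of either RNA matches both this place and the one on chromosome 8. The counts in the row of Mir3074-1 therefore come from other reads, and which RNA these were was not analysed. At the matching place on chromosome 8, Mir24-2 held 222 and 187 own-strand counts, and only 2 and 4 counts lay on the strand of Mir3074-2.

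Opposite-strand reads were otherwise scarce in the set. For 46 of the 49 genes they were 0 in both libraries, and beside Mir3071 and Mir3074-1 only Mir3086 had any, 1 count. Beside Mir3074-2, 3 genes of the range that had no row lie opposite a gene with one. No count lay on the strand of Mir3073b, opposite Mir3073a. Mir338 held 190 and 179 own-strand counts with 1 and 1 on the strand of Mir3065, and Mir486 held 48 and 50 with 4 and 5 on the strand of Mir3107.

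Among the 47 other rows, Mir3102 was the most abundant. It lies at chr7:100882306-100882409 on the minus strand, where the hairpin spans the whole of an intron of Arhgef17, the position of a mirtron. Its 429 and 297 counts came to 116 and 73.2 CPM (94.5 ± 30.0, SD, n = 2). Replicate 1 was higher by 0.66 on the log2 scale (adjusted p = 4.39e-09, exact binomial test). Of the 22 matched miRNA genes whose hairpin spans a whole intron, 6 were detected, and Mir3102 was the single such gene of the set. RefSeq lists 4 mature RNAs for it, a pair from each of 2 adjoining stretches of the stem, and the counts do not say which were present. Its miR-3102-5p shares the seed UGAGUGG with miR-702-5p, whose gene Mir702 held 291 and 301 counts, 76.3 CPM on average.

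Mir3099 lies at chr7:6803587-6803670 on the plus strand, in an intron of Usp29, a paternally expressed gene of the Peg3 imprinted domain. miR-3099 is known from the mouse embryonic brain, where it was described in differentiating neural cells. It held 244 and 237 counts, or 65.8 and 58.4 CPM (62.1 ± 5.20, SD, n = 2). The libraries differed by a log2 ratio of 0.17, which did not pass the test (exact binomial, adjusted p = 0.313). Mir3099 stood apart from the genes on either side of it in level: its 2 values lay below both values of Mir3102 and above both values of Mir3066.

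Below Mir3099 no mean of the set lay above 20.6 CPM. Mir3066 (chr12:17355392-17355474, plus strand), in an intron of the nucleolar protein gene Nol10, held 74 and 86 counts, 20.6 ± 0.884 CPM (SD, n = 2). Mir3061 (chr11:52126746-52126836, plus strand) overlaps an untranslated part of Ppp2ca, which encodes the catalytic subunit of protein phosphatase 2A, and held 76 and 82 counts, 20.5 and 20.2 CPM. Their libraries differed by -0.09 and 0.02 on the log2 scale, and neither passed the exact binomial test (adjusted p = 0.86 and 0.99). Mir3058, in an intron of Nudt4, a phosphohydrolase of inositol pyrophosphates, held 70 and 65 counts, 18.9 and 16.0 CPM (adjusted p = 0.481, exact binomial). Mir3081, in an intron of Boc, held 60 and 66 counts, 16.2 and 16.3 CPM, with a log2 ratio of -0.0073 (adjusted p = 1, exact binomial). Boc is a co-receptor for Sonic hedgehog, the signal that patterns the ventral neural tube. The host transcripts were not measured, since the RNA was below 30 nt.

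Mir3078 and Mir3093 lie beside the genes of the neural miRNAs miR-124 and miR-9, and both were higher in replicate 1. Mir3078 (chr14:64591185-64591271, plus strand) lies in an exon of Mir124a-1hg, the host transcript of Mir124a-1, 444 bp away from that hairpin. It held 90 and 56 counts, 24.3 and 13.8 CPM (19.0 ± 7.40, SD, n = 2), with a log2 ratio of 0.81 (adjusted p = 0.00208, exact binomial). Mir124a-1 itself held 10 and 9 counts, and its hairpin shares a run of 32 nt with the other Mir124a copies, so that reads of the shared part could not be assigned to it. The larger count at Mir3078 is therefore no statement on the relative amount of the RNAs.

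Mir3093 (chr3:88215171-88215257, plus strand) lies in an intron of the noncoding gene Gm3764, 341 bp from Mir9-1. It held 69 and 39 counts, 18.6 and 9.62 CPM (14.1 ± 6.36, SD, n = 2), with a log2 ratio of 0.94 (adjusted p = 0.00228, exact binomial). This was the largest ratio among the genes of the set that passed the test. Mir9-1 had no row used here, but the minus-strand gene Gm25641, which covers it, had 0 own-strand counts and 91 and 48 opposite-strand counts. The reads at both places were thus more numerous in replicate 1. The Mir9-1 hairpin shares a run of 33 nt with the other Mir9 copies, of which Mir9-3 held 741 and 813 counts and Mir9-2 held 8 and 10.

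**Figure D2:**
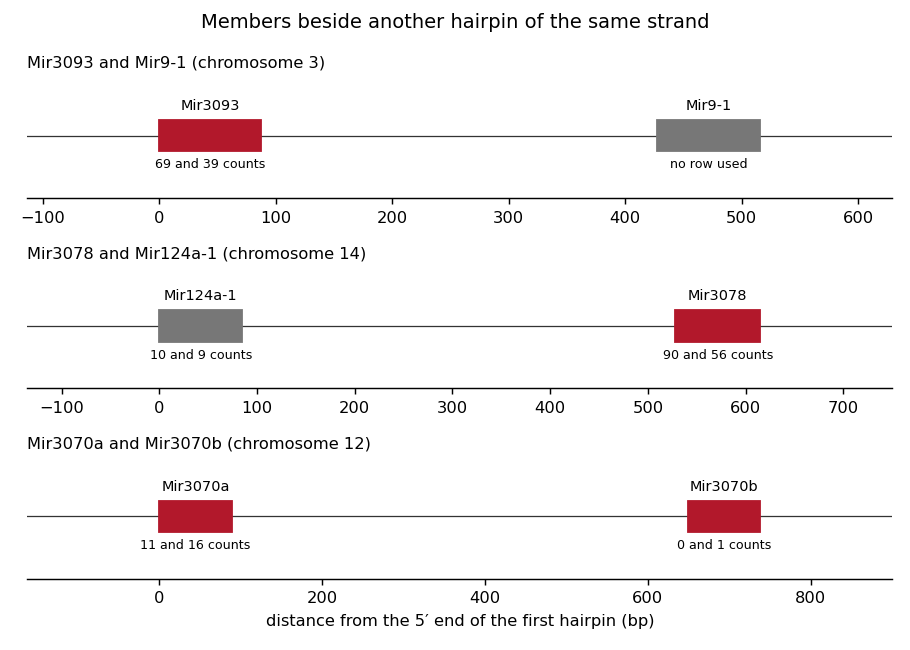
Each line is a stretch of 1 strand drawn to scale, with the distance in bp from the 5′ end of the first hairpin; red boxes are genes of the set and grey boxes other miRNA genes, with the own-strand counts of replicates 1 and 2 below. Mir3093 lies 341 bp from Mir9-1, Mir3078 lies 444 bp from Mir124a-1, and Mir3070a held 11 and 16 counts against 0 and 1 for Mir3070b.

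Mir3070a and Mir3070b (chr12:109587943-109588031 and chr12:109588592-109588680, plus strand) lie among the abundant plus-strand miRNAs of the Dlk1-Dio3 domain. Their hairpins of 89 nt differ at 5 bases, in capitals here, 2 of which lie in the 3p mature RNA.
Mir3070a: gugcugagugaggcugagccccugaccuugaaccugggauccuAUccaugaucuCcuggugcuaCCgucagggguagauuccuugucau
Mir3070b: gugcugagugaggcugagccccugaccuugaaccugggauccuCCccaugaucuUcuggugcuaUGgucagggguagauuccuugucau
Mir3070a held 11 and 16 counts, or 2.97 and 3.94 CPM, and Mir3070b held 0 and 1. The 5p mature RNA of 23 nt is identical in both and lies in their shared run of 43 nt, so that its reads could not be assigned to either. A read that covers no differing base matches both hairpins. Within 10 kb on the same strand, the means of Mir337, Mir540 and Mir665 were 927, 683 and 463 CPM.

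The remaining genes with at least 10 summed counts lay between 13.2 and 0.986 CPM, in the order shown in the plot of levels. Mir3057, in a coding exon of Apba3, an adaptor that binds amyloid precursor protein, held 49 and 37 counts, 13.2 and 9.12 CPM (11.2 ± 2.89, SD, n = 2). Mir3080, in an intron of the transcriptional coregulator Tcf20, held 45 and 35 counts. Mir3067, in an intron of Smoc1, held 45 and 32. Smoc1 is a secreted protein that modulates BMP signalling. Mir3075, in an intron of the coactivator gene Zmiz1, held 42 and 29 counts, 11.3 and 7.15 CPM. All 4 had more counts in replicate 1, at log2 ratios of 0.49 to 0.66, and none passed the exact binomial test (adjusted p = 0.173, 0.232, 0.117 and 0.101).

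Mir3064 and Mir3097 are the detected genes of the set whose hairpin ends within 3 nt of the 3′ end of an intron, the place of a tailed mirtron. Mir3064 lies in Ddx5, an RNA helicase that takes part in the Drosha complex, and held 34 and 25 counts, 9.17 and 6.16 CPM. Mir3097 lies in Rgs12, a regulator of G-protein signalling, and held 23 and 25 counts, 6.20 and 6.16 CPM. Mir3085, which shares the seed CUGGCUG with Mir3064 and has no host on its strand, held 16 and 15 counts, 4.31 and 3.70 CPM. At these counts none of the 3 differed between the libraries beyond counting noise (adjusted p = 0.24, 1 and 0.833, exact binomial).

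The other genes with at least 10 summed counts held at most 25 in a library. Mir3062, in a coding exon of the purine synthesis gene Pfas, held 25 and 18 counts, Mir3060, in an intron of Rnf215, held 20 and 20, and Mir3086, in an intron of Hspa12a, held 15 and 10. Mir3076, at the transketolase gene Tkt, held 16 and 8 counts, Mir3094, in Nfx1, held 15 and 6, and both hairpins end at the 3′ end of an intron. Mir3095, in an intron of the lysophosphatidic acid receptor gene Lpar1, held 16 and 6 counts, and its adjusted p was 0.0565 by the exact binomial test. Igf2bp1 encodes an RNA-binding protein of embryonic tissue, and Mir3063 in its untranslated part held 7 and 12 counts. Mir3105, in an intron of the synaptic scaffold gene Shank2, held 6 and 4.

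**Figure D3:**
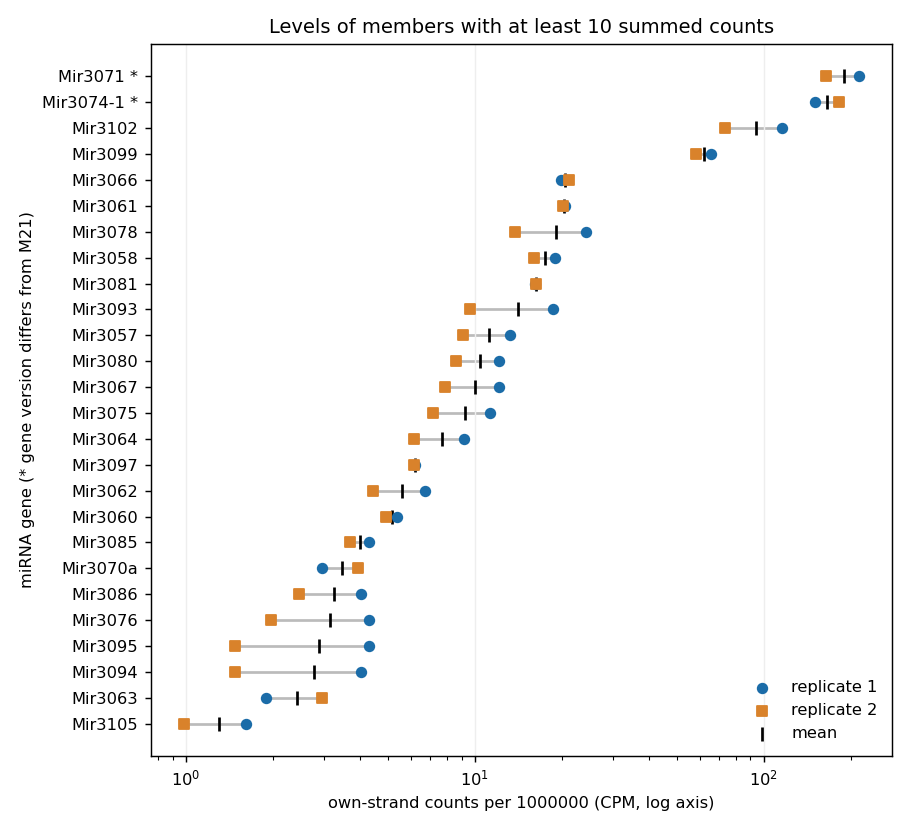
Each row is 1 of the 26 genes tested, and the points give its own-strand CPM in replicate 1 (blue circle) and replicate 2 (orange square) on a log axis, with the mean as a black bar. Rows with an asterisk, Mir3071 and Mir3074-1, carry another gene version than M21; the points of most neighbouring rows overlap in range below Mir3099.

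Ordered by mean level, 20 of the 25 pairs of neighbours overlapped in their ranges over the libraries, so their order is not fixed by these data. The separate pairs were Mir3074-1 above Mir3102, Mir3102 above Mir3099, Mir3099 above Mir3066, Mir3060 above Mir3085, and Mir3063 above Mir3105. In the last 2 of these pairs the counts were at most 20 in a library. The order of Mir3071 and Mir3074-1 was not the same in both libraries.

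The other 23 genes held fewer than 10 summed counts. Mir3098, at Mrpl51, was the highest of them with 4 and 5 counts, and Mir3059, in an intron of Mgat4c, held 5 and 3. Another 18 genes held between 1 and 6 counts over both libraries, among them Mir3073a with 0 and 2 and Mir3108, in an intron of the neuronal transcription factor gene Zfhx3, with 0 and 2. Mir3083, Mir3090 and Mir3113 had no count in either library, which allows up to 0.809 CPM in replicate 1 and 0.740 CPM in replicate 2 (3 counts, counting error only). Mir3113 shares a run of 25 nt with other hairpins, and reads that fit several places were kept apart, so the bound covers only reads placed at this gene alone. Of these 23 genes, 18 held at most 3 counts in each library, at or under the level that a count of 0 allows, and their levels cannot be ordered.

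The libraries were compared gene by gene with an exact binomial test against counting noise, adjusted over the 444 miRNA genes whose 2 counts summed to 10 or more. Reads copied by PCR are not independent, so its p-values are too small. Of the 26 genes of the set tested, 5 passed, against 53.2% of all genes tested. Mir3071, Mir3078, Mir3093 and Mir3102 were higher in replicate 1, as were 45.3% of all genes tested, and Mir3074-1 was higher in replicate 2, as were 7.88%. Without the rows of Mir3071 and Mir3074-1, 3 of 24 passed, all higher in replicate 1. None of the 26 passed with a 2-fold difference, against 5.41% of all. Among genes with 10 to 200 summed counts, 2 of 22 genes of the set passed, against 17.4% of all such genes. With the test adjusted over genes with at least 100 summed counts alone, 5 of 10 passed, against 74.8% of all such genes.

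The direction between the libraries leaned to replicate 1 in the set. The log2 ratio was above 0 for 21 of the 26 and below 0 for 5, and 74.1% of all genes tested were above 0. The median was 0.51 in the set and 0.27 over all genes tested, and 15 of the 26 lay above the latter. This excess did not hold under other filters: the medians were 0.20 and 0.24 over genes with any count, and 0.20 and 0.26 over genes with at least 100 summed counts. With TMM scaling the medians were 0.22 and -0.02, and the calls in replicate 1 fell from 4 to 1, that of Mir3102, while Mir3074-1 stayed called in replicate 2 and 39.9% of all genes were called. DESeq2 size factors left Mir3093, Mir3102 and Mir3074-1, with 41.0% of all genes called. Mir3102 and Mir3074-1 were thus called under each of these scalings. The call of Mir3071 was lost under both (log2 ratio 0.08 with adjusted p = 0.425 for TMM, 0.10 with adjusted p = 0.309 for DESeq2, exact binomial). That of Mir3078 was lost under both too (0.52 with adjusted p = 0.0729 and 0.54 with 0.0725, exact binomial). With totals that left out the 10 most abundant genes, 41.4% of all genes were called. Under these totals Mir3071 was not called, while Mir3078, Mir3093, Mir3102 and Mir3074-1 stayed called.

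**Figure D4:**
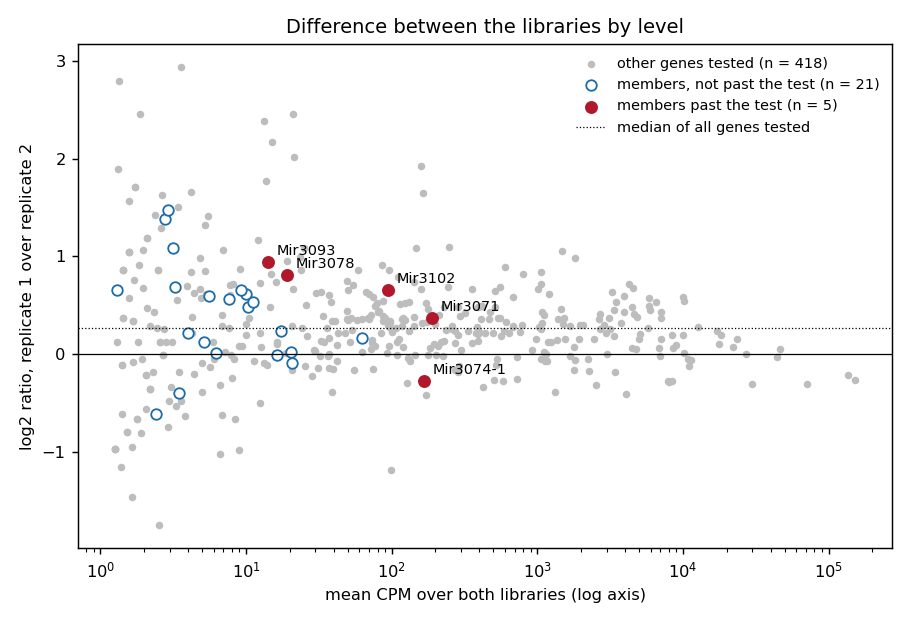
Each point is 1 of the 444 miRNA genes tested, placed by its mean CPM (log axis) and its log2 ratio of replicate 1 over replicate 2; filled red points are the 5 genes of the set past the exact binomial test and open blue points the other 21. The open points spread more widely at low CPM, and the dotted line marks the median of all genes tested, 0.27.

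By position, the 49 genes lay inside other genes more often than miRNA genes at large. In M21, 24 (49.0%) lay in an intron of a gene on the same strand, 17 (34.7%) overlapped an exon of at least 1 transcript, and 8 (16.3%) had no host on their strand. Of the 1894 genes matched to M21, the same classes held 38.1%, 18.0% and 43.9%. Detected genes were 12 of the 24, 7 of the 17 and 2 of the 8, against 166 of 722, 93 of 340 and 113 of 832 over all matched genes. Hairpins ending at the 3′ end of an intron made up 9 of the 49 (18.4%) and 9.35% of all matched genes. Of these 9, 2 were detected, against 18 of the 39 genes of the set that neither end there nor span an intron. Over all matched genes, 9 of 177 such hairpins were detected.

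The hairpins themselves showed little that went with detection. Detected genes of the set had a median hairpin of 85 nt, a GC content of 55.1% and a predicted folding energy of -0.464 kcal/mol per nt, and those not detected had 81.5 nt, 53.7% and -0.456 kcal/mol per nt. Both groups were more stable by this measure than the median of all matched genes, -0.379 kcal/mol per nt. The median of the detected matched genes lay nearer, at -0.434 kcal/mol per nt. All matched genes include genes without a number in the symbol, few of which gave reads. A first base of U, which Argonaute favours, was present in 14 of 40 mature RNAs of detected genes (35%) and in 20 of 49 of the others (40.8%), with miR-3070-5p in both groups, against 40.9% of all 1679 mouse mature RNAs of the table. A run of at least 20 nt shared with another hairpin was present in 6 of the 49 genes (12.2%), against 48.7% of all matched genes, so for most of the set reads could be placed at a single gene.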

How the data were processed

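Small RNA libraries of E11.5 mouse neural tube, 2 of 1 group, were compared as deposited. The authors deposited raw counts for each miRNA gene on mm10 with GENCODE M4, per the labels and the deposited file lists; the aligner, the counter and any trimming: not given in the sources used here. Columns, which have no names, were read as counts on either strand, the own strand and the opposite strand, from their sums and values. The sums alone fix only the column of either strand. Own-strand counts were used, and 0 columns lacked a sample. Rows that name no gene held 56.5% and 47.0% of 8530505 and 7655421 reads and stayed out of totals. Symbols, positions and hairpins came from GENCODE M21 by gene identifier (1894 of 1973 matched), mature sequences from RefSeq GRCm38.p6, and folding energies from RNAfold 2.7.2. CPM and log2 ratios (pseudocount 0.5 counts) were computed here. Given the totals, the 2 counts of a gene entered an exact binomial test (two-sided). It was adjusted after Benjamini-Hochberg over all genes summing to 10 or more, with 0.05 as the threshold. The test was tried on simulated data with counting noise alone, which cannot show how it behaves under further spread between libraries. Genes with at least 10 summed counts were named, and other genes only as host, overlapping, neighbouring within 10 kb, or sharing 20 nt or a seed. Alternatives were TMM (edgeR 4.0.16), DESeq2 1.42.0 size factors (R 4.3.3), filters, pseudocount, strands and left-out rows or libraries; the rest used Python 3.11.15, scipy 1.17.1 and pandas 2.3.3. Members and lists were chosen with earlier results of these data known, and the alternative without rows of changed gene version was added after seeing the data. No test between groups is possible with 1 group.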

Additional observations from a re-analysis of the deposited data

Results flagged for a closer look

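Counts on the strand opposite a gene were not part of the comparison of the libraries. At places where a gene of the range overlaps another miRNA gene, the following lay above the limit of 3 counts. At Mir3074-1 they came to 132 in replicate 1 and 69 in replicate 2, the largest such counts at a gene of the set. At Mir24-2, on the strand of Mir3074-2, they came to 4 in replicate 2. At Mir486, on the strand of Mir3107, they came to 4 in replicate 1 and 5 in replicate 2. The groups of 2 libraries are too small for a check of outlying samples.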

How the results depend on the processing

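With 2 libraries, each value rests on counting error and 1 distance between pools. The share of counts, 0.0718%, was 0.0661% to 0.0776% with 1 library left out, 0.0547% without genes that share a run of 20 nt, 0.0529% without Mir3071 and 0.0363% without the 2 rows of changed gene version. The number detected, 21, was 22 to 24 with 1 library left out, 38 with at least 1 count in both libraries and 4 with at least 100. The 5 calls became 2 with TMM scaling (1 higher in replicate 1), 3 with DESeq2 size factors (2 higher in replicate 1), and 3 without the rows of changed version, then with 0 higher in replicate 2; counts on either strand also left 0 higher in replicate 2. The ratio of own-strand to opposite-strand counts at Mir3074-1 was 4.23 to 10.7 with 1 library left out. Ratios that changed sign under TMM and DESeq2 were those of Mir3099 (-0.12 and -0.10), Mir3061 (-0.27 and -0.25), Mir3058 (-0.0525 and -0.0334), Mir3097 (-0.28 and -0.26), Mir3060 (-0.16 and -0.14) and Mir3085 (-0.0684 and -0.0493), none of them called; each scaling lowers every ratio by 1 constant. The call of Mir3093 was lost under TMM (0.66, adjusted p = 0.0515, exact binomial). Over 4 settings, 86 ratios of single genes kept their direction and side of the threshold, 12 changed sign and 6 lost their call. The 86 include all 26 ratios of the other pseudocount, which does not enter the test and so could not cost a call. Counts on either strand could move little, since 46 of the 49 genes had no opposite-strand count. All 12 changes of sign came under TMM and DESeq2 scaling. Where no construction shows the cause, the cause was not tested. The ratio to the partner's opposite-strand count was not run, since 1 gene of each overlapping pair had a row. No paired analysis was possible because there is 1 group.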
